A study of Mus musculus with 25 samples.

Results

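The genes described here encode the enzymes and membrane proteins of the lysosome. The set holds 34 mouse symbols listed by name: 9 cathepsins, 5 glycosidases, 5 soluble proteins that handle lipids, the soluble proteins Tpp1 and Grn, 7 membrane proteins, 5 subunits of the vacuolar ATPase and the transcription factor Tfeb. All 34 were found among 41388 gene identifiers, and all 34 passed the filter on low counts that left 14065 genes for testing. Ctsk passed on 5 libraries, 4 of them WD WT NAMPT and 1 WD LKO EV, so it entered the tests through the group in which it was high. Atp6v0d2 passed on 23 libraries, and the other members were above 1 CPM (read count scaled to the library total) in all 25 libraries. RNA sequencing of liver from male C57B/6J mice aged 20 weeks gave 1 library per mouse. WT mice were Sirt1 LoxP/LoxP littermates, and LKO mice carried Albumin-Cre in addition, which acts in hepatocytes. Every mouse had received AAV8, either as empty vector (EV) or with NAMPT, which makes a precursor of NAD and was driven by the thyroxine-binding globulin promoter of hepatocytes. The groups were chow WT EV (n = 3), Western diet (WD) WT EV (n = 6), WD WT NAMPT (n = 6), WD LKO EV (n = 5) and WD LKO NAMPT (n = 5), after 12 weeks.

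The lysosome is the acidic compartment in which proteins, glycans and lipids delivered by endocytosis, phagocytosis and autophagy are broken down. The vacuolar ATPase pumps protons into it, soluble hydrolases work at the resulting pH, and heavily glycosylated membrane proteins line and protect its boundary. TFEB is the transcription factor that activates many lysosomal genes through a palindromic promoter element whose core is CACGTG. In liver, hepatocytes use lysosomes to hydrolyse lipoprotein and lipid droplet lipids, and the resident macrophages (Kupffer cells) are rich in them.

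RefSeq promoter windows, from 250 bases before to 50 bases after a transcript start (GRCm38.p6), were given for 27 of the 34 members. CACGTG stood in a window of 10 of these 27 members, 37% against 8.09% of the 27025 genes with a window. The longer form TCACGTGA, which contains CACGTG, stood in 6 members (Atp6v0d1, Atp6v1a, Ctsa, Ctsd, Gla and Mcoln1), 22.2% against 1.12% of genes. Both motifs read the same on either strand. The 3 members that changed in a comparison described below and hold the core are printed from 5′ to 3′ on the strand of the gene, with every match in capitals. Each stretch stops before the start of the gene in the annotation of the files, which lies 211 bases (Ctsd), 120 bases (Gla) and 26 bases (Lamp1) upstream of the RefSeq start, so matches closer to the RefSeq start are given by distance only. The Ctsd stretch is chr7:142388039-142388077 on the minus strand, the Gla stretch is chrX:134601126-134601255 on the minus strand and the Lamp1 stretch is chr8:13158991-13159132 on the plus strand.
Ctsd: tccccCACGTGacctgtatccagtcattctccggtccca
Gla: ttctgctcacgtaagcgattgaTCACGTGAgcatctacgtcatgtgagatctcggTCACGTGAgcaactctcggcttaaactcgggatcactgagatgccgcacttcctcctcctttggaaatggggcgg
Lamp1: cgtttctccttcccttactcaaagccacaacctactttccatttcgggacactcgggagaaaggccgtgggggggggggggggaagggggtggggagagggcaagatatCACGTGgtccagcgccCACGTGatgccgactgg
Gla held 2 copies of TCACGTGA, 228 and 195 bases before its RefSeq start, both printed. Ctsd held a core at 245 bases, printed, and 1 copy of the longer form at 99 bases, which lies inside the gene in the annotation of the files. Lamp1 held 4 cores, at 61 and 45 bases, printed, and at 28 and 15 bases, which reach into the annotated gene, and no copy of the longer form. A match describes these letters and not a site of binding. In the GRCm38 annotation of the files, Gla spans chrX:134588149-134601125 on the minus strand, Ctsd chr7:142371148-142388038 on the minus strand, Lamp1 chr8:13159135-13175338 on the plus strand, Laptm5 chr4:130913125-130936141 on the plus strand, Ctss chr3:95526786-95556403 on the plus strand, Cd63 chr10:128908919-128912816 on the plus strand, Lipa chr19:34492318-34527474 on the minus strand and Hexa chr9:59539667-59565105 on the plus strand.

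Levels between genes are given per length, as RPKM scaled with the TMM size factors of edgeR. In WD WT EV liver the most abundant member was Lamp1, the glycoprotein that forms much of the lysosomal membrane coat, with 321 ± 19.6 RPKM (SD, n = 6). The cysteine protease Ctsl followed with 187 ± 10.99 RPKM and Psap, the precursor of the saposins that present sphingolipids to their hydrolases, with 184 ± 35.3 RPKM. The level of Ctsl and that of Psap did not differ beyond the spread. The aspartic protease Ctsd had 145 ± 24.5 RPKM, the cysteine protease Ctsb 130 ± 13.6 RPKM and the acid lipase Lipa 115 ± 28.3 RPKM, again with overlapping libraries. These members ranked above 96.5% or more of the genes kept. At the other end, Tfeb had 1.65 ± 0.24 RPKM, the alpha-galactosidase Gla 1.35 ± 0.16 RPKM, Atp6v0d2 0.81 ± 0.47 RPKM and Ctsk, the collagen-degrading protease of osteoclasts, 0.29 ± 0.17 RPKM. The 2 genes for subunit d of the vacuolar ATPase stood far apart. Atp6v0d1 had 35.5 ± 1.71 RPKM and Atp6v0d2, the form known from osteoclasts and macrophages, 0.81 RPKM.

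**Figure D1:**
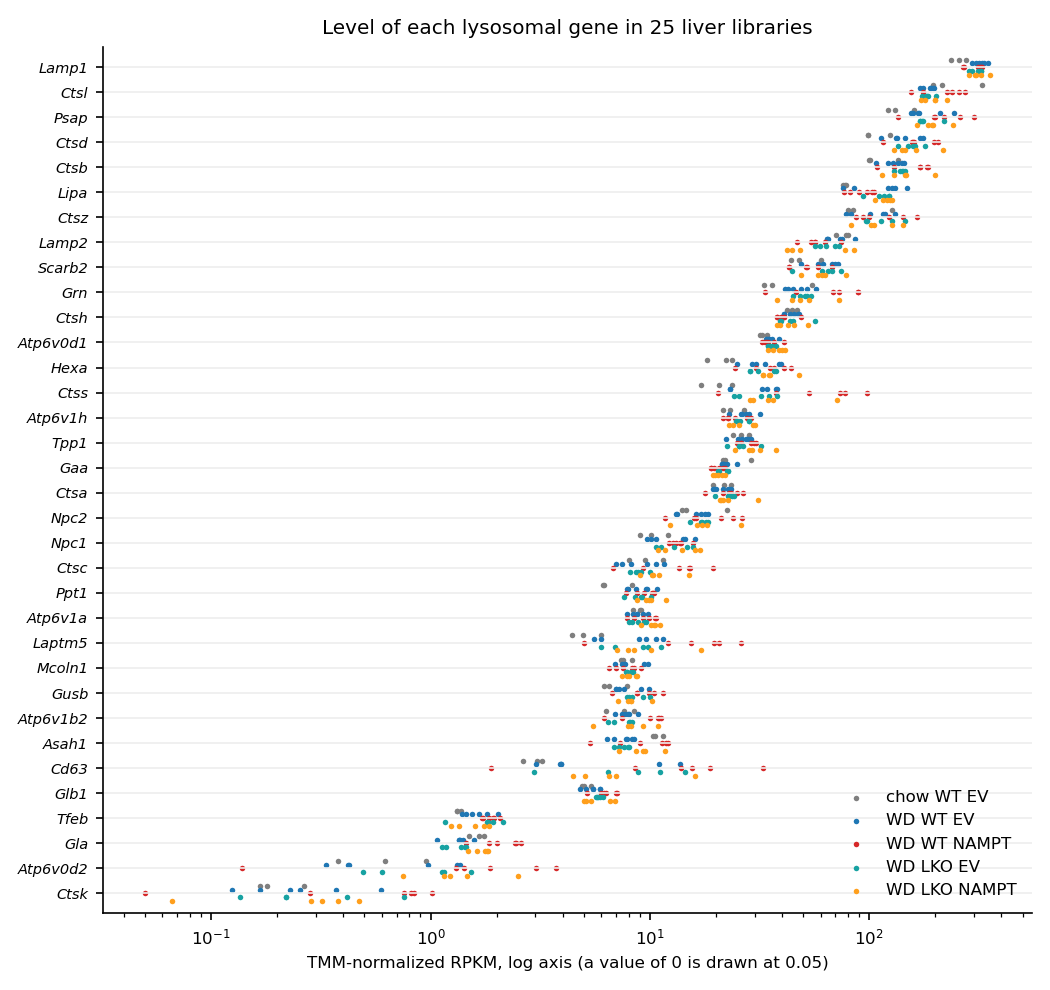
Levels of the 34 lysosomal genes, 1 point a library, with TMM-normalized RPKM on a log axis, genes ordered by their mean in WD WT EV and colours for the 5 groups. Lamp1 stood highest at 321 RPKM in WD WT EV and Ctsk lowest at 0.29 RPKM, and the rows of Cd63, Atp6v0d2 and Ctsk spread most.

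Total counts ran from 20166175 to 32937326 per library. Sirt1 was not lower in the libraries labelled LKO: EV libraries had 7.16 to 10.1 CPM when labelled LKO and 7.99 to 9.53 CPM when labelled WT. A count over the whole gene does not show the loss of part of its exons, so directions for LKO rest on the labels. Nampt counts were 59.5 ± 10.6 CPM (SD, n = 6) in WT NAMPT and 47.4 ± 6.46 CPM (SD, n = 6) in WT EV, which did not pass the test (limma adjusted p = 0.144). WT NAMPT replicates 2 and 4, with 46.8 and 52.2 CPM, lay within the WT EV range of 38.3 to 54.1 CPM. LKO NAMPT had 79.9 ± 28.4 CPM (SD, n = 5) and LKO EV 56.1 ± 12.0 CPM (SD, n = 5), with a limma adjusted p of 0.403. LKO NAMPT replicates 1, 4 and 5, with 73.6, 62.1 and 53.9 CPM, lay within the LKO EV range of 46.0 to 75.6 CPM. WD WT NAMPT replicate 6 stood apart from its group. It had the lowest value of the group for 19 of the 34 members and the lowest sum of macrophage markers, with Nampt at 59.9 CPM. WD LKO NAMPT replicate 1 had the highest value of its group for 21 members, and chow WT EV replicate 3 for 28. Hepatocyte markers dominated all libraries, with a sum of 48259 CPM or more over 7 genes. In bulk liver, fewer cells of a type and less RNA per cell cannot be told apart.

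The first comparison asked how the Western diet changed these genes in WT EV liver. Of the 34 members, 9 rose and 1 fell, which is 29.4%, beside 22% of all 14065 genes (10.1% higher and 12.0% lower). The median log2 fold change was 0.22 over the members and -0.0047 over all genes, and 28 of the 34 values were above 0. The members' median was 0.0946 without chow replicate 1, 0.125 without chow replicate 2 and 0.0973 with 2 surrogate variables as covariates. Chow and WD libraries were separate for 4 members, Hexa, Lamp1 and Tfeb higher and Asah1 lower, beside 16.1% of all genes.

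Among the cathepsins, 3 of 9 rose on the diet. Ctsd, an aspartic protease that starts the breakdown of many proteins, had 248.7, 249.2 and 314 CPM in the chow libraries and a lowest, median and highest value of 284, 351 and 443 CPM on WD. Its log2 fold change was 0.51 ± 0.12 (SE, limma adjusted p = 0.00338), and only chow replicate 3 reached into the WD range. Ctsd shares 163 exonic bases with Ifitm10 on the same strand. Ctss, the cysteine protease that cuts the invariant chain in antigen-presenting cells, had 28.04, 23.3 and 32.3 CPM on chow. On WD its lowest, median and highest values were 31.5, 45.2 and 51.5 CPM, a log2 fold change of 0.71 ± 0.24 (SE, limma adjusted p = 0.0336), and chow replicate 3 overlapped the lowest WD libraries. Ctsb, which shares 767 exonic bases with Fdft1 on the other strand, had 471, 475 and 638 CPM on chow and 511, 627 and 682 CPM as lowest, median and highest on WD. The groups overlapped, with a log2 fold change of 0.34 ± 0.11 (SE, limma adjusted p = 0.0276). Ctsl had a value of -0.22, with an adjusted p of 0.168. The remaining 5 cathepsins ran from 0.01 to 0.45 on the log2 scale and did not pass the test.

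Among the glycosidases, Hexa rose. Hexa encodes the alpha chain of beta-hexosaminidase, which cleaves the ganglioside GM2. It had 33.9, 41.4 and 44.1 CPM on chow and 46.4, 59.6 and 74.0 CPM as lowest, median and highest on WD, so the groups did not overlap. Its log2 fold change was 0.63 ± 0.13 (SE, limma adjusted p = 0.00134). Gusb, the beta-glucuronidase, had 0.28 with an adjusted p of 0.0543, and Gla had -0.27 with an adjusted p of 0.155. Gaa and Glb1, which cleave glycogen and terminal galactose, had -0.03 and 0.10.

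The lipid-handling proteins changed in 4 of 5 cases, 3 higher and 1 lower. Lipa, the acid lipase that hydrolyses cholesteryl esters and triglycerides, had 229, 225 and 232 CPM on chow. On WD the lowest, median and highest values were 226, 369 and 442 CPM. The chow libraries lay close together, whereas WD replicates 1, 2, 4 and 6 had 361 CPM or more and WD replicates 7 and 8 had 254 and 226 CPM. The log2 fold change was 0.58 ± 0.12 (SE, limma adjusted p = 0.0016). Ppt1, which removes palmitate from proteins, rose by a log2 fold change of 0.50 ± 0.10 (SE, limma adjusted p = 0.00132), from 22.7, 22.5 and 30.3 CPM on chow to 29.0, 33.4 and 39.8 CPM as lowest, median and highest on WD. Chow replicate 3 overlapped the WD libraries. Psap, with 335, 359 and 441 CPM on chow and a WD median of 459 CPM, rose by 0.46 ± 0.12 (SE, limma adjusted p = 0.00974) on the same scale. Asah1, the acid ceramidase, went the other way. It had 34.9, 39.0 and 35.9 CPM on chow and 21.6, 26.5 and 28.8 CPM as lowest, median and highest on WD, with no overlap and a log2 fold change of -0.50 ± 0.13 (SE, limma adjusted p = 0.00621). Npc2, which carries cholesterol inside the lysosome, had 0.09 and did not pass.

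Of the membrane proteins, 2 of 7 rose. Lamp1 had 535, 579 and 620 CPM on chow and 663, 726 and 784 CPM as lowest, median and highest on WD. The groups did not overlap, and the log2 fold change was 0.34 ± 0.07 (SE, limma adjusted p = 0.00125). Lamp2, the related coat protein that also serves chaperone-mediated autophagy, had a value of -0.12 with an adjusted p of 0.56. Laptm5, a transmembrane protein of lysosomes in blood cell lineages, had 18.7, 16.7 and 22.6 CPM on chow and 21.2, 35.0 and 43.5 CPM on WD, a log2 fold change of 0.85 ± 0.26 (SE, limma adjusted p = 0.0209). Chow replicate 3 overlapped the lowest WD library. Cd63, Npc1, Scarb2 and Mcoln1 had values from 0.06 to 0.83 and did not pass, although Cd63 had 2.73, 3.16 and 3.31 CPM on chow and up to 14.1 CPM on WD. None of the 5 vacuolar ATPase subunits was called, with values from -0.03 to 0.53. Atp6v0d1 had 0.12 ± 0.06 (SE, limma adjusted p = 0.145) and Atp6v0d2 had 0.53 ± 0.58 (SE, limma adjusted p = 0.549). Tfeb had 7.48, 7.48 and 7.81 CPM on chow and 7.88, 9.08 and 11.5 CPM as lowest, median and highest on WD. Its libraries did not overlap, but its log2 fold change of 0.26 ± 0.14 (SE) had an adjusted p of 0.204. Tpp1, a tripeptidyl peptidase, and Grn, the progranulin gene, had 0.08 and 0.40 and did not pass.

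**Figure D2:**
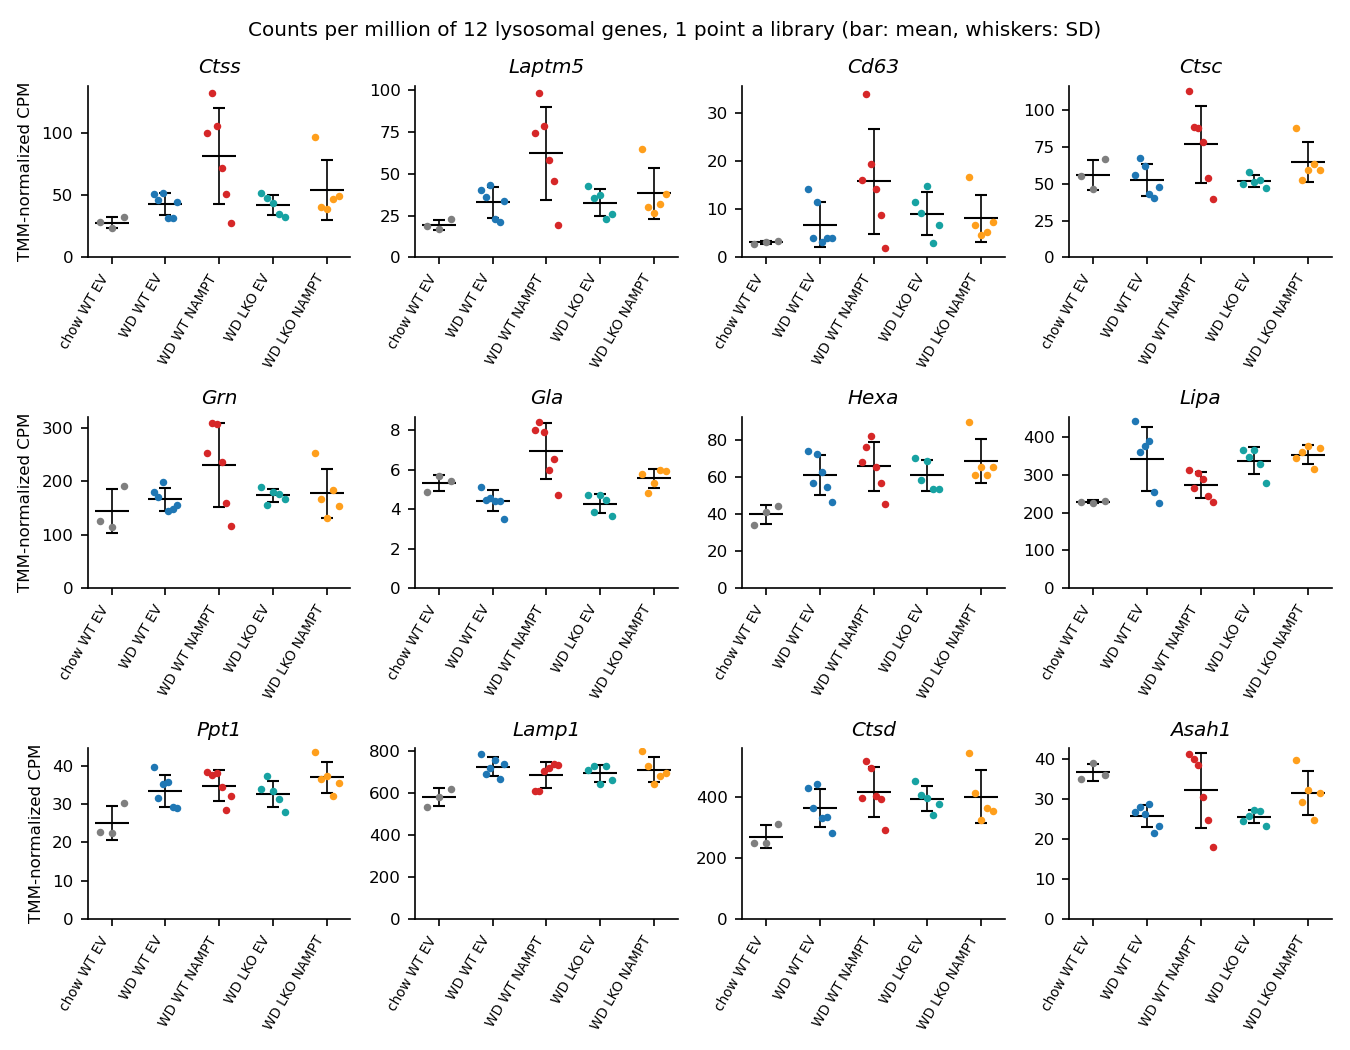
TMM-normalized CPM of 12 lysosomal genes, 1 point a library in 5 groups, with the group mean as a bar, the SD as whiskers and axes from 0. Hexa, Lamp1 and Asah1 separate chow from WD WT EV, and in WD WT NAMPT the points of Ctss run from 27.8 to 132 CPM.

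Other lysosomal genes were counted from lists by pathway. The share called was 37% of the further hydrolases, 38.5% of the membrane proteins, 50% of the vacuolar ATPase genes, 18.2% of the sorting genes, 6.67% of the MiT/TFE and mTORC1 genes and 18.8% of the autophagy genes, beside 22% of all genes. Of 27 further hydrolases and activators, 9 were higher and 1 lower on WD, with Arsa at a log2 fold change of 0.67 and Lgmn at 0.60 among the higher and Acp2 at -0.23 as the lower. Of 13 further membrane proteins tested, 4 were higher (Cd68 at 0.79, Tmem192 at 0.52 and Slc17a5 at 0.43 among them) and Abca2 was lower at -0.45. Of 12 further vacuolar ATPase genes, 5 were higher, led by Atp6v0c at 0.42, Atp6v0a2 at 0.39 and Atp6v0e at 0.36, and Atp6v0a1 was lower at -0.31. Of 11 genes that sort lysosomal enzymes, Gnptab, which makes the mannose 6-phosphate tag, was higher at 0.33 and the sorting receptor Sort1 was lower at -1.17. Mtor, at 0.41, was the 1 gene called of 15 MiT/TFE factors and mTORC1 components at the lysosome. Of 16 autophagy genes tested, 3 were higher, namely Ulk1 at 0.76, Wipi1 at 0.53 and Vps11 at 0.30. The median of these 6 lists lay between 0.07 and 0.14.

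Markers of other cell types were counted in this comparison as well. Called were 33.3% of macrophage and Kupffer cell, 12.5% of recruited macrophage and 28.6% of stellate cell and fibroblast markers, beside 22% of all genes. For lymphocyte, endothelial and hepatocyte markers the share was 28.6%, 33.3% and 42.9%. The macrophage and Kupffer cell sum over 12 genes was 461 to 602 CPM on chow and 566 to 811 CPM in WD WT EV, none was at 0 in any library, and 4 of 12 were called higher, while Marco had -1.20 and was not called. Of 8 recruited macrophage markers 1 was higher, with a median of 1.61, and of 7 stellate cell and fibroblast markers 2 were higher, with a median of 0.54. Lymphocyte and endothelial markers each had 1 higher and 1 lower, of 7 and 6, and no neutrophil or cholangiocyte marker was called. Of 7 hepatocyte markers tested, 3 were lower. The part of these cell types in the members' values was not tested. Hexa, Lipa and Ppt1 were called in each of 11 other settings and Lamp1 in 10, whereas the edgeR quasi-likelihood test called 4 members (9.4% of all genes), the exact test 3 (10.4%) and DESeq2 4 (12.4%). Without chow replicate 1 the count was 2 members, Lipa higher and Ctsl lower, beside 6.89% of all genes, and without chow replicate 2 it was 1, Hexa, beside 5.95%.

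The next comparison asked what the NAMPT vector did in WT liver on the Western diet. Of the 34 members, 6 rose and 0 fell, 17.6% beside 13.4% of all genes (7.67% higher and 5.77% lower). They were Cd63, Laptm5, Ctss, Gla, Grn and Ctsc. The median log2 fold change was 0.22 over the members against 0.0041 over all genes, and 26 of 34 values were above 0. With 2 surrogate variables as covariates the members' median was -0.0276 with 14 values above 0, with the replicate number as a block it was 0.0892, and with library size alone as scaling it was 0.364, where the median of all genes was 0.156. The libraries overlapped for every member, while 0.960% of all genes had groups that did not overlap.

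Ctss had a lowest, median and highest value of 27.8, 86.3 and 132 CPM in WT NAMPT, against 31.5, 45.2 and 51.5 CPM in WT EV. The 4 highest NAMPT libraries stood above every EV library, replicate 5 with 50.8 CPM lay within the EV range and replicate 6 lay below it. The log2 fold change was 0.86 ± 0.22 (SE, limma adjusted p = 0.0167). Ctsc, which activates the granule proteases of leukocytes, had 39.5, 83.2 and 113 CPM against 40.5, 52.0 and 67.4 CPM, a log2 fold change of 0.49 ± 0.16 (SE, limma adjusted p = 0.042). Its NAMPT libraries fell in the same places, 4 above the EV range, replicate 5 within it and replicate 6 below it. The remaining 7 cathepsins did not pass and ran from -0.16 (Ctsh) to 1.27 (Ctsk). Ctsk was listed at 0 in replicate 6 and had 0.42 to 1.51 CPM in the other 5 libraries. Ctsd had 291, 401 and 518 CPM against 284, 351 and 443 CPM, with a log2 fold change of 0.22 ± 0.12 (SE, limma adjusted p = 0.211).

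Gla was the member with the lowest adjusted p. Gla removes terminal alpha-galactose from the glycolipid globotriaosylceramide. It had 4.74, 7.24 and 8.42 CPM as lowest, median and highest in WT NAMPT and 3.51, 4.44 and 5.15 CPM in WT EV. Only replicate 6 of the NAMPT libraries reached into the EV range, and the log2 fold change was 0.65 ± 0.12 (SE, limma adjusted p = 0.00677). On chow, Gla had 4.88, 5.70 and 5.40 CPM. The other 4 glycosidases ran from -0.09 (Gaa) to 0.29 (Gusb, adjusted p of 0.0551). Grn, the precursor of the lysosomal granulins, had 117, 245 and 310 CPM against 144, 163 and 199 CPM, a log2 fold change of 0.49 ± 0.16 (SE, limma adjusted p = 0.0411). Again replicate 5 lay within the EV range and replicate 6 below it. Tpp1 had 0.03.

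None of the 5 lipid-handling proteins was called. Lipa had 228, 278 and 311 CPM in WT NAMPT against 226, 369 and 442 CPM in WT EV, with a log2 fold change of -0.27 ± 0.12 (SE, limma adjusted p = 0.125), so its value lay below 0 where the diet value lay above. These 2 comparisons share the WT EV libraries and are given side by side only. Npc2, Psap and Asah1 had 0.34, 0.30 and 0.30, and Ppt1 had 0.07.

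The membrane proteins divided. Cd63, a tetraspanin of late endosomes and lysosomes, had 1.94, 15.1 and 33.9 CPM in WT NAMPT against 3.12, 4.06 and 14.1 CPM in WT EV. EV replicates 1 and 4 had 14.1 and 11.4 CPM and the other 4 at most 4.07 CPM, and NAMPT replicates 1 to 4 stood above all of them. The log2 fold change was 1.41 ± 0.43 (SE, limma adjusted p = 0.0332), and with 2 surrogate variables as covariates it was -0.2031. Laptm5 had 19.02, 66.2 and 98.4 CPM against 21.2, 35.0 and 43.5 CPM, with 5 of 6 NAMPT libraries above every EV library and replicate 6 below them. Its log2 fold change was 0.89 ± 0.23 (SE, limma adjusted p = 0.0161). Lamp1 had 606, 712 and 736 CPM against 663, 726 and 784 CPM, and its log2 fold change of -0.04 had a 95% interval from -0.18 to 0.10 (limma adjusted p = 0.746). Lamp2 had -0.33 (adjusted p of 0.0836) and Scarb2, the receptor that carries glucocerebrosidase to the lysosome, -0.29 (adjusted p of 0.158). The cholesterol transporter Npc1 and the calcium channel Mcoln1 had 0.15 and 0.03. No vacuolar ATPase subunit passed. Atp6v0d1 had -0.01, with a 95% interval from -0.13 to 0.10. Atp6v0d2 had 0.38, 4.45 and 10.1 CPM against 0.91, 1.90 and 3.70 CPM, a log2 fold change of 1.02 ± 0.44 (SE, limma adjusted p = 0.118). The subunits of the catalytic part, Atp6v1a, Atp6v1b2 and Atp6v1h, had 0.11, 0.30 and -0.17. Tfeb had 9.78, 10.7 and 11.7 CPM against 7.88, 9.08 and 11.5 CPM, with a log2 fold change of 0.26 ± 0.13 (SE, limma adjusted p = 0.17).

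**Figure D3:**
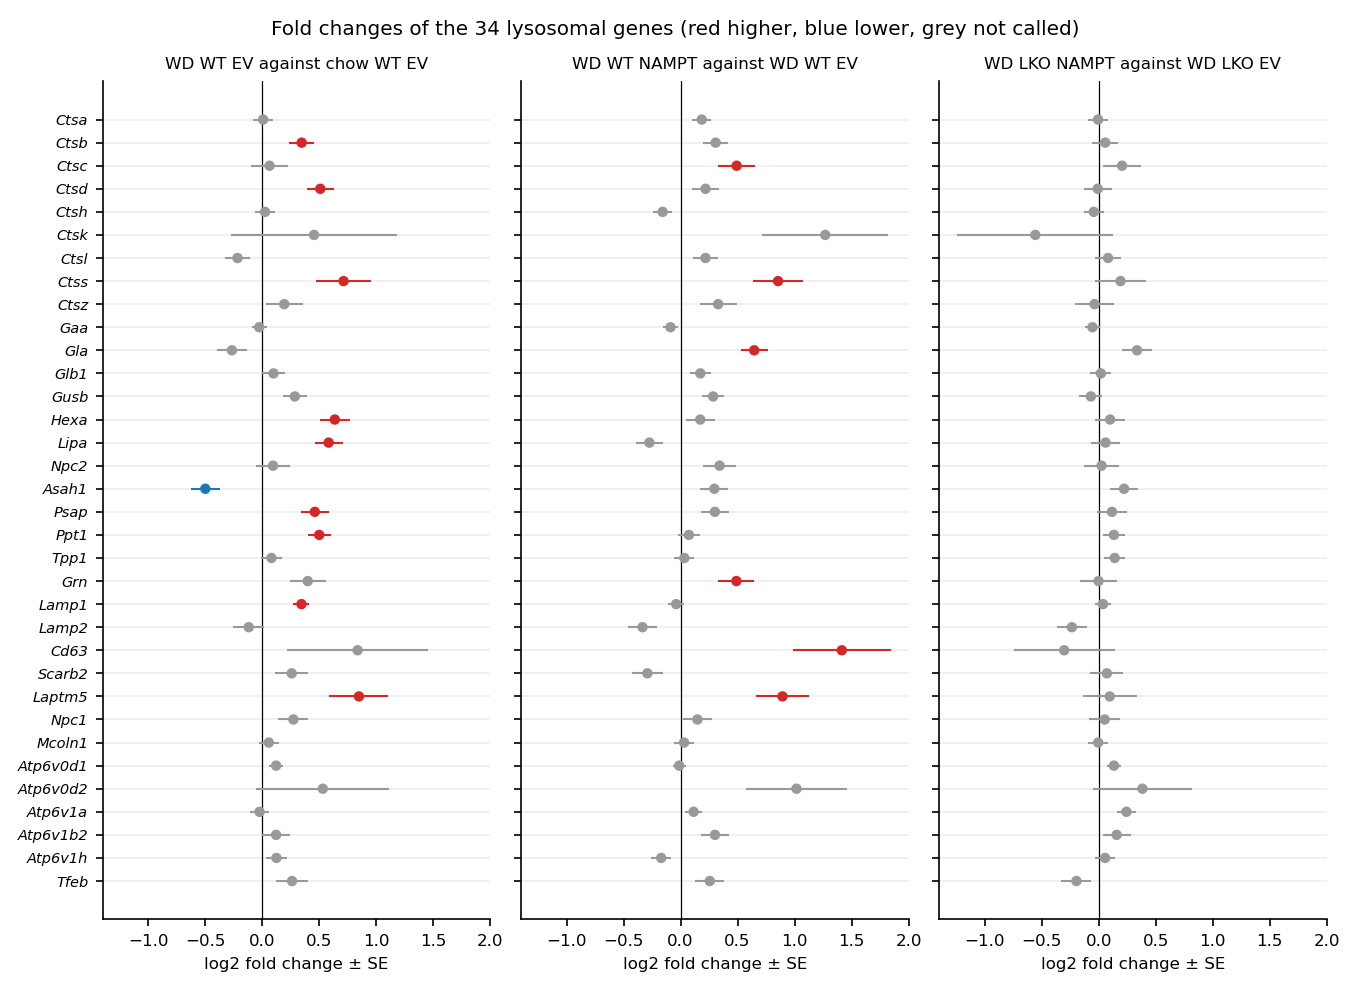
Log2 fold change (point) with its SE (line) for each of the 34 lysosomal genes in 3 comparisons, in red where called higher, blue where called lower and grey where not called. The diet panel holds 9 red points and 1 blue point, the WT NAMPT panel 6 red points and the LKO NAMPT panel 0.

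The share called was 11.1% of the further hydrolases, 15.4% of the membrane proteins and 18.8% of the autophagy genes, beside the 13.4% of all genes, and lower in the other 3 lists. Of 27 further hydrolases and activators, Lgmn at 0.69 and Galns at 0.65 were higher and Ctso was lower at -0.24. Of 13 membrane proteins, Mcoln2 at 1.05 and Cd68, a macrophage lysosomal glycoprotein, at 0.995 were higher. No gene was called among 12 vacuolar ATPase genes or 15 MiT/TFE and mTORC1 genes, 1 of 11 sorting genes was higher (Gga3 at 0.41), and 3 of 16 autophagy genes were lower (Atg5 at -0.55, Atg12 at -0.36 and Atg7 at -0.34). Without adjustment, 18 of the 34 members, Ctsk included, and 4260 of the 14065 genes had a p-value under 0.05.

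Macrophage markers were also called in this comparison. The sum of the 12 macrophage and Kupffer cell markers was 566 to 811 CPM in WT EV and 528, 1334 and 1676 CPM as lowest, median and highest in WT NAMPT. Of the 12, 9 were called higher and 0 lower, 75% beside 13.4% of all genes. None was at 0 in any library, and the exceptions were Clec4f, Vsig4 and Timd4. NAMPT replicates 1, 2 and 3, with marker sums of 1631, 1531 and 1676 CPM, had Laptm5 at 74.1, 98.4 and 78.3 CPM, and replicate 6, with the lowest sum, had 19.02 CPM. Markers of recruited macrophages were called higher for 3 of 8, of neutrophils for 2 of 5 tested, with Ly6g at 0 in 18 of the 25 libraries, and of stellate cells and fibroblasts for 4 of 7. None of 7 lymphocyte or 4 cholangiocyte markers was called. Of 6 endothelial markers 1 was higher and 1 lower, and 1 of 7 hepatocyte markers was lower. Laptm5, Ctss and Ctsc are themselves expressed in leukocytes. The part of any of these cell types in the values of these members, or in those of Cd63, Gla and Grn, was not tested.

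**Figure D4:**
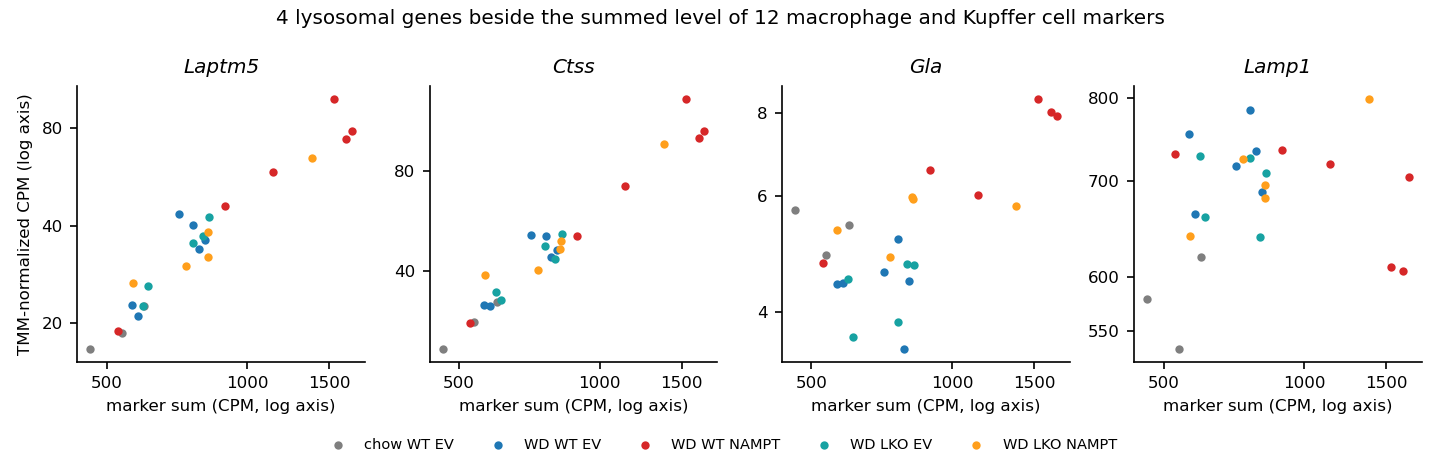
TMM-normalized CPM of Laptm5, Ctss, Gla and Lamp1 (vertical, log axes) against the summed CPM of 12 macrophage and Kupffer cell markers (horizontal, log axes), 1 point a library in 5 colours by group. WD WT NAMPT replicates 1, 2 and 3, with the highest marker sums, have the highest values of Laptm5, Ctss and Gla, and for Lamp1 they have 606, 610 and 704 CPM.

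The count of 6 rests on the test and on single libraries. The edgeR quasi-likelihood test and limma without sample weights each called Gla alone, beside 3.04% and 1.37% of all genes. The exact test called 3 members and DESeq2 4, beside 6.05% and 8.49% of all genes, so calls were fewer over all genes too. With 2 surrogate variables as covariates Lipa, lower, was the single member called, beside 0.469% of all genes. Without WT NAMPT replicate 6 the count was 14, beside 20.2% of all genes. Ctsk is 1 of these 14 and was tested through its WT NAMPT level, and Ctsb, Psap and Atp6v0d2 (log2 fold change of 1.21) were among the others. In that fit the log2 fold change of Ctss was 1.005 and that of Laptm5 1.04. Without replicate 5 the count was 12, beside 19.9% of all genes, without replicate 1 it was 3 (8.92%), without replicate 2 it was 2, Gla and Laptm5 (5.32%), and without replicate 3 it was 1, Gla (0.94%). Without WT EV replicate 2 or 6 it was 1, Gla in each case, beside 2.07% and 4.47% of all genes, and without WT EV replicate 7 it was 3 (10.3%). The share of all genes thus moved with the count. Gla was called in 10 of 11 other settings and in 12 of 12 fits that each left out 1 library.

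The same vector was compared in the libraries labelled LKO. No member was called by limma, edgeR or DESeq2, beside 0.00711% of all genes (1 gene), and 3 members had an unadjusted p under 0.05, as had 1355 of all 14065 genes, a like share. The median log2 fold change was 0.06 over the members and 0.02 over all genes. Gla had 4.71, 3.86, 4.72, 4.48 and 3.66 CPM in the 5 EV libraries and 5.79, 4.83, 5.32, 5.96 and 5.94 CPM in the 5 NAMPT libraries. Every NAMPT library was above every EV library, where 1.15% of all genes had groups that did not overlap in either direction, and the log2 fold change was 0.34 ± 0.13 (SE, limma adjusted p = 0.397). Ctss had 51.7, 47.6, 43.6, 34.5 and 32.7 CPM with EV and 96.7, 40.3, 38.8, 46.7 and 49.2 CPM with NAMPT. Its log2 fold change was 0.19 with a 95% interval from -0.28 to 0.66, and replicate 1 alone stood above the EV libraries. Laptm5 had 42.5, 35.3, 37.3, 22.6 and 26.1 CPM with EV and 64.8, 30.1, 26.7, 32.0 and 38.2 CPM with NAMPT, a log2 fold change of 0.10 with an interval from -0.39 to 0.59. Replicate 1 again had the highest value, and it also had the highest macrophage marker sum of the group, 1374 CPM, where the other 4 had 568 to 826 CPM. Values for Lamp1, Ctsd, Lipa, Tfeb and Atp6v0d1 were 0.04, -0.01, 0.06, -0.20 and 0.13. Atp6v0d2 had 0.38, with an interval from -0.52 to 1.28.

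Set directly against WT NAMPT, the LKO NAMPT libraries had 1 member lower and 0 higher, 2.94% beside 7.96% of all genes (4.18% higher and 3.78% lower). Laptm5 was that member, with a log2 fold change of -0.80 ± 0.24 (SE, limma adjusted p = 0.0425). Its 5 LKO values were 64.8, 30.1, 26.7, 32.0 and 38.2 CPM against the WT median of 66.2 CPM, and the groups overlapped. Gla (-0.36, adjusted p of 0.0581), Ctss (-0.69, 0.0618), Ctsk (-1.77, 0.0689, tested through its WT NAMPT level) and Grn (-0.45, 0.0881) also had values below 0 and did not pass. Lipa ran the other way. It had 343, 359, 377, 316 and 371 CPM in LKO NAMPT and at most 311 CPM in WT NAMPT, so the libraries did not overlap, beside 1.39% of all genes in either direction, yet the log2 fold change of 0.32 ± 0.13 (SE) had an adjusted p of 0.103. Macrophage markers were lower for 3 of 12 in the same comparison, with a sum of 568 to 1374 CPM in LKO NAMPT, and 12 of 12 had values below 0. Lower calls were also made for 1 of 5 neutrophil, 1 of 7 stellate cell and fibroblast and 1 of 4 cholangiocyte markers, 7 of 7 stellate values lay below 0, and 1 of 7 hepatocyte markers was higher. None of 8 recruited macrophage markers was called, though 7 had values below 0, and none of 7 lymphocyte or 6 endothelial markers was called. Of all genes, 7.96% were called. The part of these cells in the members' values was not tested. Of 27 further hydrolases and activators, Lgmn at -0.54 and Galns at -0.69 were lower and Ctso at 0.38 was higher (11.1% called). Of 11 sorting genes, Sort1 was lower at -0.99 (9.09%). Of 16 autophagy genes, Atg5 at 0.65, Atg12 at 0.48 and Stx17 at 0.31 were higher (18.8%). No gene was called of 13 further membrane proteins, 12 vacuolar ATPase genes or 15 MiT/TFE and mTORC1 genes, beside 7.96% of all genes. The single call was absent with the quasi-likelihood test, the exact test and DESeq2, which called 0.32%, 1.23% and 2.09% of all genes. No member was called without WT NAMPT replicate 1, 2 or 3 or LKO NAMPT replicate 2, 3 or 5, where 0% to 4.58% of all genes were called. Gla was called in place of Laptm5 without WT NAMPT replicate 4 (4.67%), while 6 members were called without WT NAMPT replicate 6 (16.3% of all genes), 5 without LKO NAMPT replicate 1 (16.1%), 4 without WT NAMPT replicate 5 (13.9%) and 3 without LKO NAMPT replicate 4 (12.9%). The 6 and the 5 each include Ctsk, which was tested through its WT NAMPT level.

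Whether the NAMPT effect differed between genotypes was tested as an interaction, the effect in LKO minus that in WT. No member was called, beside 0.00711% of all genes, and 7 members, Ctsk included, had an unadjusted p under 0.05, as had 2986 of all 14065 genes, a like share, while the quasi-likelihood test and DESeq2 called 0. Cd63 had -1.72 ± 0.62 (SE, limma adjusted p = 0.127). Ctsk had -1.83 (adjusted p of 0.232), a value that rests on a gene tested through its WT NAMPT level. Laptm5 had -0.80 with a 95% interval from -1.48 to -0.12, Ctss had -0.66, Tfeb had -0.45 and Gla had -0.31 with an interval from -0.67 to 0.05. Values lay below 0 for 12 of 12 macrophage and Kupffer cell, 8 of 8 recruited macrophage and 7 of 7 stellate cell and fibroblast markers. The same held for 5 of 5 neutrophil, 4 of 4 cholangiocyte, 4 of 7 lymphocyte, 4 of 6 endothelial and 3 of 7 hepatocyte markers. No marker was called, and the part of these cells in the members' values was not tested. Without WT NAMPT replicate 6, Cd63 was called lower, beside 4.53% of all genes, and with the replicate number as a block Lipa was called higher, beside 0.469%.

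With EV, the libraries labelled LKO and WT on Western diet were compared last. No member was called by limma, edgeR or DESeq2, beside 0.00711% of all genes, 0 members had an unadjusted p under 0.05, and 0.590% of all genes had groups that did not overlap. The values ran from -0.15 (Lamp2) to 0.69 (Cd63), with a median of -0.0022. For Lamp1 the 95% interval of the log2 fold change was -0.20 to 0.08, for Ctsd -0.11 to 0.35, for Lipa -0.25 to 0.23, for Laptm5 -0.47 to 0.47 and for Atp6v0d1 -0.09 to 0.13. Low genes had wider intervals, such as -0.68 to 1.26 for Atp6v0d2.

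Summed over the 34 members, the level was 4396, 4545 and 5318 CPM in the chow libraries. It ran from 4864 to 5676 CPM in WD WT EV, from 4778 to 6268 CPM in WD WT NAMPT, from 5033 to 5514 CPM in WD LKO EV and from 4966 to 6315 CPM in WD LKO NAMPT. The lowest and highest WT NAMPT sums were those of replicates 6 and 3, and the highest LKO NAMPT sum was that of replicate 1. The 9 cathepsins summed to a median of 2333 CPM in WT NAMPT and 1876 CPM in WT EV, and the 7 membrane proteins to 1606 and 1715 CPM. No test was run on these sums.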

How the data were processed

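Poly-A selected liver RNA of 25 mice was sequenced with single reads of 50 bases. The authors aligned reads to GRCm38 with STAR and counted them per Ensembl gene with featureCounts; the submitters' processing notes give STAR 2.5.1a and featureCounts 1.4.6-p5, and the use of strand in counting is not given in the sources used here. The deposited files hold raw counts, and the authors' CPM and RPKM values beside them. Deposited CPM and RPKM recomputed from the counts deviated by at most 5.9e-14 (relative), so counts were used. Symbols were joined for 40254 of 41388 identifiers. The titles gave the groups; the labels' treatment text names SIRT1 as the vector insert, but the titles name NAMPT and were followed. Members and gene lists were chosen with earlier results of these data known.

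Genes with more than 1 CPM in at least 2 libraries were kept, and 4 ribosomal RNA genes were left out. Counts were fitted with TMM size factors of edgeR 4.0.16 and voomWithQualityWeights of limma 3.58.1 in R 4.3.3, as in the methods of the study, with 5 group means over 25 libraries. The legend of the study's figure on this sequencing names the edgeR exact test instead, whose counts are given with the other settings. Moderated tests were two-sided and adjusted over 14065 genes by the Benjamini-Hochberg method, with calls made up to an adjusted p-value of 0.05. Intervals use the moderated degrees of freedom. CPM and RPKM in the text are TMM-normalized. The members named were those called and Lamp1, Ctsd, Tfeb, Laptm5, Ctss, Atp6v0d1, Atp6v0d2 and Lipa. Pathway lists were named by up to 3 called genes a direction. A gene that this rule would name is not reported here. The symbols Tmem55b and Tf had no match. On simulated counts with 200 of 14065 genes changed 2-fold, the fit recovered 75% for WT NAMPT against WT EV with 7 false calls, and 60% for the diet with 5. The simulation drew each gene independently around its mean and held no outlying library, and many members changed less than 2-fold. Its rates therefore do not carry over to the calls reported. No 2 libraries of the same group agreed within sampling noise (smallest chi-square per degree of freedom 15.1). The labels give no sequencing batch. The alternatives used DESeq2 1.42.0, sva 3.50.0, other size factors, filters and tests, the replicate number as a block, and fits without 1 library.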

Additional observations from a re-analysis of the deposited data

Results flagged for a closer look

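In 136 tests of 34 members in the 4 groups of 5 or 6 libraries, 7 had a highest or lowest library far from the others by Dixon's ratio on log2 values. Chance flags about 1 in 20 groups, a like share. WD LKO NAMPT replicate 1 gave 3 of them, with Ctsa at 146.6 CPM (next 107.4), Ctss at 96.74 CPM (next 49.19) and Hexa at 89.55 CPM (next 65.55). This library also had the highest macrophage marker sum of its group. WD LKO EV replicate 1 had Psap at 598.2 CPM, and WD LKO EV replicate 2 had Tfeb at 6.617 CPM, the lowest of its group. WD WT NAMPT replicate 6, which was lowest for 19 members, had Ctsh at 220.6 CPM, the highest of its group. WD WT EV replicate 7 had Gaa at 119.2 CPM. No member passed the interaction test over all libraries, and the cause of these values was not tested.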

How the results depend on the processing

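The number of members called in WT NAMPT against WT EV, 6 in the report, was 1 with the edgeR quasi-likelihood test, 1 without sample weights, 1 without a filter on low counts, 3 with the edgeR exact test, 3 with only the groups compared, 1 with 2 surrogate variables and 14 with library size alone, and ran from 1 to 14 over fits without 1 library. With library size alone the median log2 fold change of all genes was 0.156 in that comparison and -0.119 in LKO NAMPT against WT NAMPT, against 0.0041 and -0.0055 in the report. For LKO NAMPT against WT NAMPT, 1 in the report, it was 0 with the quasi-likelihood test, the exact test, DESeq2, no weights, no filter, only the groups compared or 2 surrogate variables (0.095% to 2.09% of all genes, against 7.96%), 2 with upper-quartile factors (7.52%) and 2 with the filter on mean CPM (9.63%), and 0 to 6 without 1 library. For the diet, 10 in the report, it was 4 with the quasi-likelihood test, 3 with the exact test, 4 with DESeq2, 4 without weights and 6 without a filter, and 1 to 12 without 1 library. The share of all genes called moved as well, from 13.4% to between 0.469% and 16.2% in WT NAMPT over these settings, and for the diet to 9.4%, 10.4%, 12.4%, 8.54% and 6.77% in the order given. The interaction ran from 0 to 1, and both other comparisons stayed at 0 in every setting. The cause of these shifts was not tested. With a replicate block the counts were 2 for WT NAMPT (Gla higher and Lipa lower), 1 for the interaction (Lipa higher) and 13 for the diet, beside 6.29%, 0.469% and 27.3% of all genes. The replicate numbers come from the titles and belong to different mice. Deviations of same-numbered libraries of WT NAMPT and WT EV had correlations from -0.228 to 0.415, and those of LKO EV and WT EV from -0.377 to 0.419. The sources used here do not say what the numbers stand for, so whether they mark a shared litter, cage or batch cannot be told. With 2 surrogate variables 14 of 34 members had values above 0 in WT NAMPT, against 26 in the report, and their median was -0.0276; among the members described in full, directions reversed for Grn (-0.02463), Cd63 (-0.2031), Ctsd (-0.09912) and Atp6v0d2 (-0.241; -0.2159 for the diet), and with library size alone for Lamp1 (0.1092). Atp6v0d1, near 0 in the report, reversed with upper-quartile factors (0.02495), library size alone (0.1378), the replicate block (0.02279) and 2 surrogate variables (0.05421), and ran from -0.0359 to 0.04134 without 1 library.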
